A study of Mus musculus with 28 samples.

Results

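This comparison asked what a single dose of cisplatin, given without any antibody, had done to the transcriptome of a mesothelioma tumor 1 week later. Its members were the 4 tumors labelled cisplatin and the 4 labelled PBS (the vehicle), 8 of the 28 tumors of the series, and every gene that passed a filter on low counts. All tumors were grown under the skin of BALB/c.AusBP mice from AB1-HA, 1 mouse mesothelioma line that carries influenza hemagglutinin as a marker antigen, and the mice were female and 8 to 10 weeks old. Cisplatin was injected into the peritoneum at 6 mg/kg when tumors measured 20 to 25 mm2, and every tumor was taken on day 7 after treatment began. Each tumor came from a different mouse. The design text counts 5 cisplatin tumors, of which the 4 labelled so were analysed here. Of the other groups, 5 ICB tumors received anti-CTLA-4 and anti-PD-L1 antibodies (100 µg each; immune checkpoint blockade), 5 cisplatin+ICB tumors received both treatments, and 5 5-FU tumors received 75 mg/kg of the antimetabolite. A further 5 5-FU+ICB tumors received 5-FU and both antibodies at these doses, and enter only fits of all 6 groups, such as that behind the 5-FU comparison. The other groups enter only where named.

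Cisplatin binds neighbouring purines in DNA and forms intrastrand and interstrand crosslinks, which are removed by nucleotide excision repair and by the Fanconi anemia pathway with homologous recombination. Stalled replication forks activate the kinases ATR and ATM. These stabilize the transcription factor p53, which switches on a cell cycle inhibitor (Cdkn1a), its own inhibitor (Mdm2) and pro-apoptotic genes. Cell entry of the drug uses among others the copper transporter encoded by Slc31a1, and thiols and metallothioneins bind it inside the cell.

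The libraries held between 25502173 and 32293571 estimated counts (PBS 26836269 to 31291619, cisplatin 25502173 to 32293571). Levels are given as CPM, counts scaled to a common library size with TMM factors. A level of 3 counts corresponded to 0.0885 to 0.121 CPM, a limit that covers counting error only. Whole tumors were sequenced, so fewer cells of a type and less RNA per cell cannot be told apart. Of the 8 marker genes listed for mesothelial and tumor cells, Msln (mesothelin) stood at 212 to 356 CPM and Pdpn (podoplanin) at 60.3 to 117 CPM in the 8 tumors. Wt1 and Krt19 were near the 3-count limit, at 0 to 0.502 and 0.0626 to 0.359 CPM, and Krt18 and Upk3b did not pass the filter. One library stood apart. PBS 1 had 2073 CPM of the mitochondrial ribosomal RNA mt-Rnr1, against 42.1 to 79.2 CPM in the other 7, and 14659 CPM of Lars2, against 1318 to 5940.4 CPM.

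The tumors did not separate by treatment. The first principal component of log2 CPM over the 17819 genes tested held 43.5% of the variance, and both ends of it held tumors of both groups: cisplatin 1 scored 54.5 and PBS 3 37.4, while PBS 2 scored −77.8 and cisplatin 4 −36.8. Along this axis the long transcripts moved against the short ones. The mean log2 CPM of the 10% of genes with the longest transcripts minus that of the 10% with the shortest ran from −1.09 in PBS 2 to 0.71 in cisplatin 1, and it followed the component with a Pearson correlation of 0.997 over the 8 tumors. Both measures come from the same libraries, and the correlation is a description. Euclidean distances between a cisplatin and a PBS tumor averaged 95.9 (16 pairs, 72.8 to 142), those within the PBS group 99.9 (6 pairs, 70.9 to 131) and those within the cisplatin group 93.1 (6 pairs, 75.7 to 110). For 4 of the 8 tumors the nearest tumor belonged to the same group. How far the length axis contributes to single genes was not tested.

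**Figure D1:**
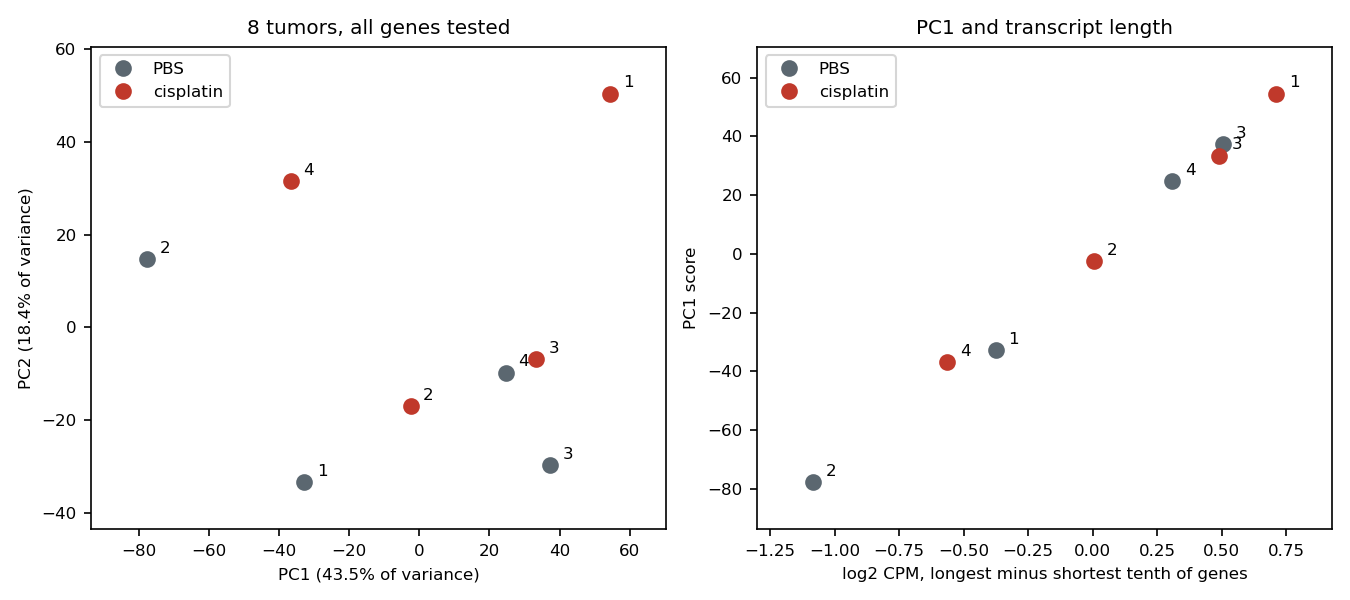
Left, scores of the 4 PBS tumors (grey) and 4 cisplatin tumors (red), numbered by replicate, on the first and second principal components of log2 CPM, which hold 43.5% and 18.4% of the variance. Right, the first component against the difference in mean log2 CPM between the 10% of genes with the longest and the 10% with the shortest transcripts, with tumors of both groups at both ends.

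No gene passed the test. When PBS, ICB, cisplatin and cisplatin+ICB tumors were fitted together by edgeR's quasi-likelihood test, 0 of 17819 genes (0%) had a Benjamini-Hochberg adjusted p under 0.05 and a log2 fold change beyond 0.5, and the smallest adjusted p was 0.99997. At an unadjusted p under 0.05 there were 232 genes higher (1.30%) and 85 lower (0.477%), together 1.78% of those tested. This count of 317 was 172 without PBS 1, 171 without cisplatin 1 and 705 without cisplatin+ICB 1, a tumor of neither group that enters through the shared fit. In 279 genes (1.57%) the lowest cisplatin tumor lay above the highest PBS tumor, and in 327 (1.84%) the highest cisplatin tumor lay below the lowest PBS tumor. The median log2 fold change, cisplatin minus PBS, was −0.01, and the middle 90% of genes lay between −0.41 and 0.77. The median standard error was 0.38. For 8807 genes (49.4%) the 95% interval lay within 1 on the log2 scale on either side of 0, so a change of more than 2-fold lay outside the interval for these genes and not for the rest.

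Other tests called few genes. DESeq2's Wald test called 3 of 35030 genes (0.00856%), and each rested on 1 or 2 tumors. Gm15429, a processed pseudogene on chromosome 1, had 58 and 76 counts in cisplatin 2 and 3 and 0 in the other 6. Gm20547 had 78 counts in cisplatin 4 and Gm45837 had 116 in the same tumor, and both had 0 in the other 7. Gm20547 (chr17:34856412-34882042, GRCm38) overlaps Cfb and C2 on the same strand, and Gm45837 (chr7:101410886-101512819) overlaps Arap1 and Pde2a, so reads could be assigned to either partner. Limma voom with sample quality weights called 1 gene, Gm37846 on chromosome 3, which stands outside the rule for named genes and was chosen after its values were seen. It had 0, 7, 0 and 0 counts in the PBS tumors and 8, 20, 8 and 9 in the cisplatin tumors (adjusted p = 0.0297). By the same tool Cdkn1a had an adjusted p of 0.101.

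Cdkn1a, which encodes the cyclin-dependent kinase inhibitor p21, was the p53 target with the smallest p. It stood at 143, 155, 128 and 135 CPM in PBS tumors 1 to 4 and at 177, 219, 216 and 229.8 CPM in cisplatin tumors 1 to 4 (values below follow the same order). The groups did not overlap, and the means were 140.5 ± 11.6 and 210.4 ± 22.98 CPM (SD, n = 4 each). The log2 fold change was 0.58 with a standard error of 0.16 and a 95% interval of 0.25 to 0.92. Its unadjusted p in edgeR was 0.00178, and with 17819 genes tested the adjusted p was 0.99997. The gene lies at chr17:29090976-29100727 on the plus strand (GRCm38). Its sign was the same under 28 of 28 alternative settings, with values from 0.51 to 0.66. With groups apart, leaving out 1 tumor could hardly have turned the sign.

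The promoter of Cdkn1a is shown because this gene has the smallest p among the listed p53 targets. Those of Mdm2 and Ccng1 stand beside it as examples of windows with a single half-site. They are windows of 300 bases, 250 before and 50 after a start site in RefSeq (GRCm38.p6), written 5′ to 3′ on the strand of the gene. Capitals mark matches of the 10 letters of the p53 half-site consensus, which reads the same on both strands. The windows are chr17:29090729-29091028 (plus strand) for Cdkn1a, chr10:117710709-117711008 (minus strand) for Mdm2 and chr11:40755237-40755536 (minus strand) for Ccng1.
Cdkn1a: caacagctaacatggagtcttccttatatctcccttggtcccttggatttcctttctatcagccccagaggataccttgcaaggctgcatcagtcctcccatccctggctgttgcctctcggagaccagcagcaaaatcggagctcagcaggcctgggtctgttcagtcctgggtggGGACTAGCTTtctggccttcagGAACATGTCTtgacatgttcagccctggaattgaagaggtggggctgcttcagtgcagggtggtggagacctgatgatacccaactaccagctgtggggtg
Mdm2: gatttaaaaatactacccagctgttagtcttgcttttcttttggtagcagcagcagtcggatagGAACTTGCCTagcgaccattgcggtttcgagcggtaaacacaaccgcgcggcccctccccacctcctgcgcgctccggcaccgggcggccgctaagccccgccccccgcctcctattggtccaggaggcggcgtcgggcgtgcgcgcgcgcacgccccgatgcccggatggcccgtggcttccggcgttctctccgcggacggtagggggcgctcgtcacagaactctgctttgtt
Ccng1: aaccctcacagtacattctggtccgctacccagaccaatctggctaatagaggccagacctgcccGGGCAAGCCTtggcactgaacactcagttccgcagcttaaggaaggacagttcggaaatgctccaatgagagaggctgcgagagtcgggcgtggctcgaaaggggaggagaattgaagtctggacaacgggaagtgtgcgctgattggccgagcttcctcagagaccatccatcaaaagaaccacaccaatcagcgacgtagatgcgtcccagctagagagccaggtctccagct
In the Cdkn1a window the half-sites begin 73 and 51 bases before the start site, with 12 bases between them. Only exact matches are marked. The 10 bases directly after the second half-site depart from the consensus only in their first letter and are unmarked. A full site, meaning a pair of half-sites at most 13 bases apart, occurred in 0.0731% of the 32851 promoters of this length in the table, and a half-site in 8.36%. RefSeq promoters were matched for 18 of the 26 listed p53 targets (25 windows), of which 9 windows of 8 genes held a half-site and 1, that of Cdkn1a, a full site. Of the other listed targets that were higher with groups apart, Trp53inp1 had no matched window and Ephx1 had none with a half-site. A match is a description of the letters and does not show binding.

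Trp53inp1, a p53-induced gene that promotes p53 phosphorylation and autophagy, stood at 25.4, 25.1, 25.6 and 33.0 CPM under PBS and at 59.7, 34.8, 52.5 and 41.9 CPM under cisplatin. All 4 cisplatin tumors lay above all PBS tumors, with a log2 fold change of 0.79 ± 0.22 (SE; unadjusted p = 0.00245, adjusted p = 0.99997, edgeR). Ephx1, the microsomal epoxide hydrolase, stood at 46.6, 51.1, 41.2 and 44.4 against 59.1, 60.0, 73.7 and 68.9 CPM. Its groups did not overlap either (0.51 ± 0.20, unadjusted p = 0.0222, edgeR).

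Mdm2, the ubiquitin ligase that degrades p53, stood at 73.6, 92.9, 72.0 and 74.5 CPM under PBS and 74.7, 87.6, 88.1 and 99.2 CPM under cisplatin. These groups overlapped, and the difference of 0.16 on the log2 scale had a 95% interval of −0.22 to 0.54. It was 0.06 without cisplatin 4 and 0.25 without PBS 2. Plk2, a polo-like kinase that p53 induces, was the one listed target with all cisplatin tumors below all PBS tumors. It stood at 119.6, 118, 119 and 126 against 88.4, 113, 89.4 and 92.8 CPM (−0.33 ± 0.19, unadjusted p = 0.0889, edgeR). Trp53 itself, at 128 to 226 CPM under PBS and 120.1 to 195 CPM under cisplatin, showed overlapping groups (−0.19 ± 0.30). Its value was −0.32 without PBS 2 and −0.05 without PBS 3.

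**Figure D2:**
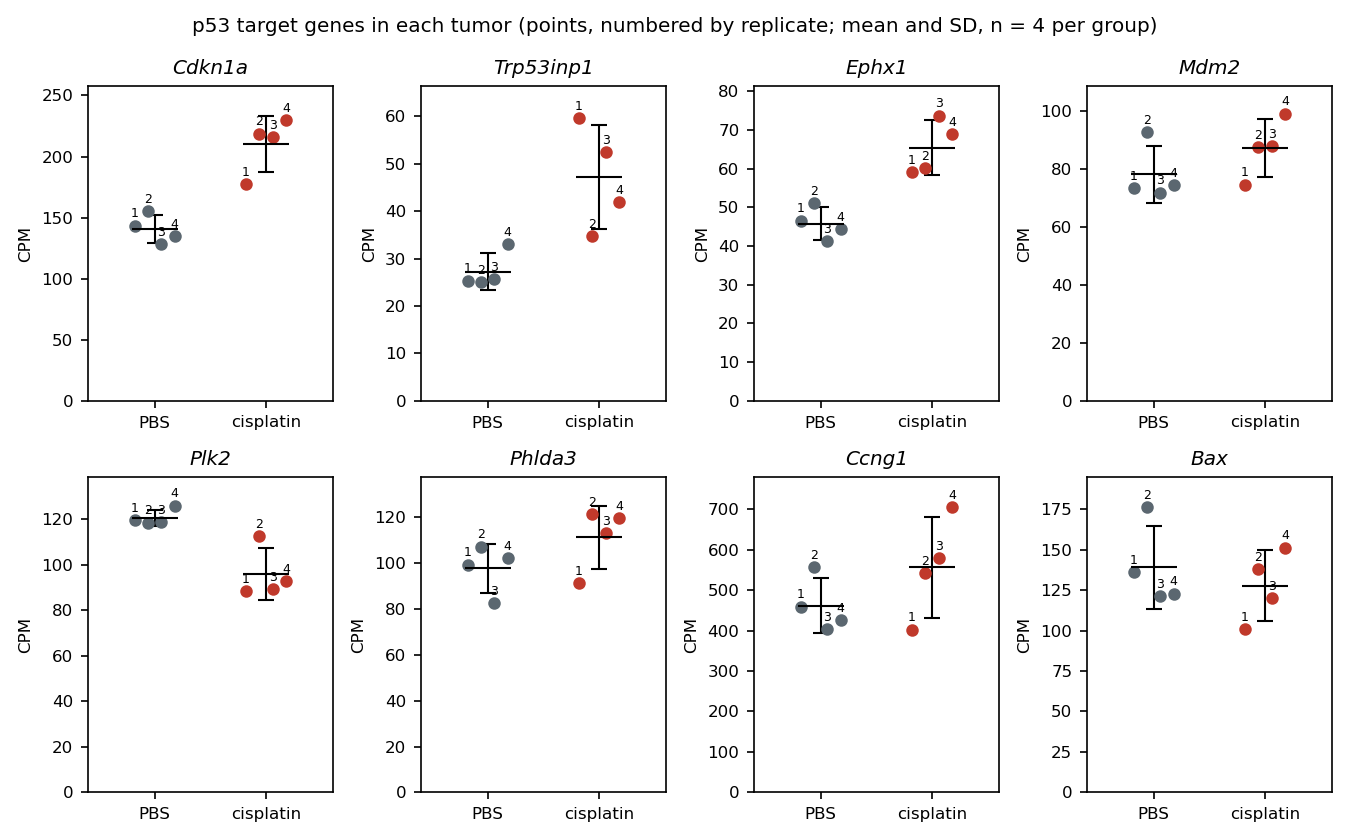
CPM of 8 p53 target genes in each of the 4 PBS tumors (grey) and 4 cisplatin tumors (red), numbered by replicate, with the group mean (bar) and SD (whiskers). Cdkn1a, Trp53inp1 and Ephx1 are higher in all 4 cisplatin tumors than in any PBS tumor, Plk2 is lower in all 4, and the groups overlap in Mdm2, Phlda3, Ccng1 and Bax.

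All 26 listed p53 targets passed the filter. Of these 0 passed the test, and 20 had a fold change above 0, where 48.1% of all genes tested did. The median was 0.17, beside −0.01 over all genes. At an unadjusted p under 0.05 there were 3 higher and 0 lower, beside 1.30% and 0.477% of all genes tested. The groups were apart in these 3 and, in the other direction, in Plk2, beside 1.57% and 1.84% of all genes. Among the pro-apoptotic targets, Pmaip1 (NOXA) was at 1.90 to 2.58 CPM under PBS and 2.11 to 4.37 CPM under cisplatin. Fas, the death receptor, was at 3.16 to 8.23 against 4.75 to 9.62 CPM, and its highest PBS tumor exceeded 3 of the cisplatin tumors. Bbc3 (PUMA) and Bax differed by −0.0037 and −0.12 on the log2 scale, with 95% intervals of −0.50 to 0.49 and −0.80 to 0.55. Ccng1, cyclin G1, ran from 403 to 557 CPM under PBS and from 402 to 705 CPM under cisplatin. The count of genes above 0 ranged from 17 (without cisplatin 4) to 21 of 26 when tumors of these groups were left out in turn. It was 21 without PBS 1 and cisplatin+ICB 1, a setting chosen after the data were seen.

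Most list medians depended on single tumors. When the 8 tumors were left out in turn, the medians of 35 of the 39 gene lists changed sign or moved by more than 1.5 times at least once, and those of p53 targets, DNA replication, mitosis and adipocytes did not. Of 19 genes of damage signalling (sensors, kinases and their mediators) 6 were above 0, with a median of −0.07 (−0.14 without PBS 2, −0.03 without PBS 3 or cisplatin 4, −0.12 without cisplatin 3), and 0 had an unadjusted p under 0.05. H2afx, which encodes the histone variant phosphorylated at breaks, was lower in all cisplatin tumors, at 99.6, 114, 118 and 104 CPM under PBS and 70.7, 93.6, 85.1 and 97.0 CPM under cisplatin (−0.33 ± 0.25). Mdm4, a partner of Mdm2, had overlapping groups at 28.2 to 46.9 and 36.9 to 84.0 CPM.

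Nucleotide excision repair, the main route for intrastrand platinum adducts, had 4 of 17 genes above 0 and a median of −0.16 that was −0.09 without cisplatin 1. Ercc1, the nuclease subunit often measured in relation to platinum treatment, stood at 157, 137, 231 and 157 CPM under PBS and at 116, 161, 196 and 123 CPM under cisplatin. The groups overlapped and the 95% interval ran from −0.88 to 0.49.

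The Fanconi anemia pathway had 5 of 15 genes above 0 (median −0.16), homologous recombination 4 of 19 (−0.08), mismatch repair 1 of 8 (−0.14) and translesion synthesis 4 of 9 (−0.02). None of these genes had an unadjusted p under 0.05 in edgeR. Without cisplatin 1 the Fanconi median was −0.04 and that of mismatch repair −0.08, without PBS 3 they were −0.07 and −0.08, and the homologous recombination median was −0.05 without PBS 3 and −0.13 without cisplatin 3. The Fanconi median was also −0.25 without cisplatin 2 and −0.10 without cisplatin 4, and the translesion median was −0.10 without PBS 2. The intervals of single genes were among the narrower ones. They lay within 1 on either side of 0 for 8 of 8 mismatch repair genes, 17 of 19 homologous recombination genes and 11 of 15 Fanconi genes, beside 49.4% of all genes. Mad2l2, a subunit of the translesion polymerase zeta, was lower without overlap, at 19.1 to 21.2 under PBS and 15.5 to 19.0 CPM under cisplatin (−0.24 ± 0.14).

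Of the genes of drug handling, Slc31a1 stood at 76.3, 72.4, 61.8 and 61.5 CPM under PBS and 60.6, 68.0, 64.1 and 73.2 CPM under cisplatin, a difference of −0.03 with a 95% interval of −0.34 to 0.28. Its sign changed with the setting. Of 10 measured genes of platinum uptake and export 7 were above 0, led by the efflux pump gene Abcc3 at 6.17 to 7.31 against 6.77 to 14.8 CPM. Among 17 genes of thiol defence 5 were above 0, with a median of −0.13 that was −0.04 without cisplatin 1. Gclc, the catalytic subunit of the enzyme that limits glutathione synthesis, was lower without overlap (28.6 to 37.3 against 24.0 to 27.8 CPM; −0.34 ± 0.17, unadjusted p = 0.0641, edgeR). Mt1, a metallothionein, had a difference of 0.12 with an interval of −0.46 to 0.70.

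All genes of both proliferation lists lay below 0 but none passed the test. Of 22 DNA replication genes 22 were lower, with a median of −0.28 and a range of −0.47 to −0.04, and of 18 mitosis genes 18 were lower, with a median of −0.26. By comparison, 51.9% of all genes tested were lower. None had an unadjusted p under 0.05. Scaled by DESeq2 size factors and not by TMM, 22 replication genes and 16 mitosis genes were below 0. When tumors of these groups were left out in turn, up to 2 replication genes and up to 4 mitosis genes were above 0.

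Mcm2, a subunit of the replicative helicase, stood at 153, 132, 188 and 167 CPM under PBS and at 113, 143, 158 and 119.6 CPM under cisplatin. Rrm1, the large subunit of ribonucleotide reductase, was apart, at 364, 356, 349.7 and 325 against 227, 298, 319 and 297 CPM (−0.29 ± 0.23). So were Cdc20, an activator of the anaphase-promoting complex (130.3, 122, 119 and 120.0 against 75.6, 113, 108 and 91.1 CPM), and the spindle kinases Aurkb and Bub1. These were 1 of the 22 replication genes and 3 of the 18 mitosis genes, beside 1.84% of all genes apart in that direction. Cisplatin 1 was the lowest of the 8 tumors in 14 of the 22 replication genes and 11 of the 18 mitosis genes. Without it the medians were −0.19 and −0.18, with 0 of 22 and 0 of 18 genes above 0.

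Mki67, the gene of the proliferation marker Ki-67, varied more within groups than between them. It stood at 169, 97.4, 674 and 478 CPM under PBS and at 479.7, 314, 452 and 139.9 CPM under cisplatin, and its low values were in PBS 1, PBS 2 and cisplatin 4, the tumors whose long transcripts were lowest against the short ones (−0.37, −1.09 and −0.56). The difference of −0.03 had an interval of −1.34 to 1.27, and its sign changed under several settings.

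**Figure D3:**
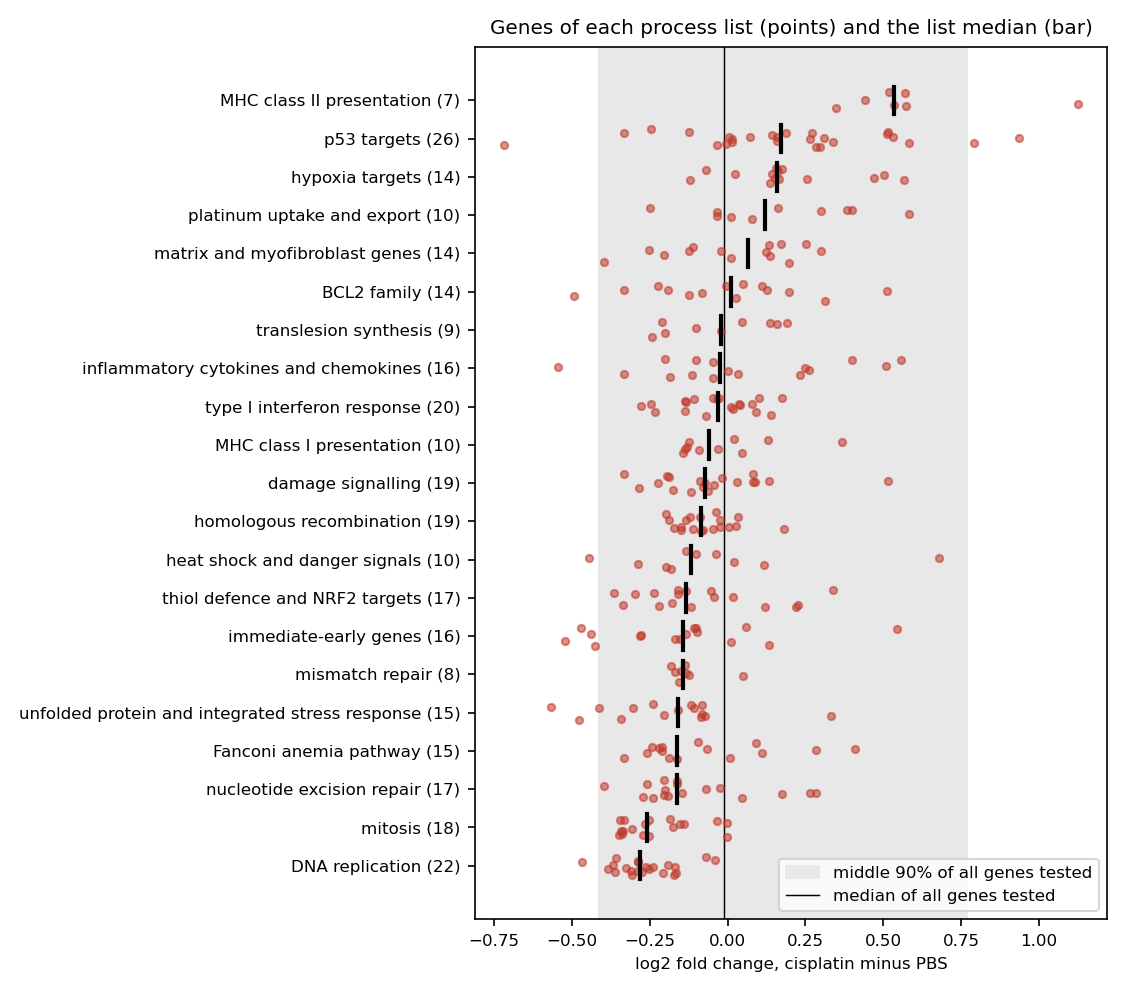
Log2 fold change, cisplatin minus PBS, of each gene (points) of the 21 process lists, with the number of genes measured in parentheses and the list median as a bar. The grey band holds the middle 90% of all 17819 genes tested (−0.41 to 0.77). The lists for DNA replication and mitosis lie wholly below 0 and that for MHC class II wholly above.

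The stress response lists leaned lower. Of 15 genes of the unfolded protein and integrated stress response 1 was above 0, beside 48.1% of all genes. The median was −0.16, and −0.27 without cisplatin 4. Asns, asparagine synthetase and a target of ATF4, was lower in all cisplatin tumors at 187, 143, 154 and 137 against 69.5, 132, 120.5 and 96.3 CPM (−0.57 ± 0.31). Ppp1r15a, the GADD34 phosphatase subunit, was lower as well at 24.7, 22.4, 21.5 and 23.2 against 14.6, 18.7, 13.9 and 18.7 CPM (−0.48 ± 0.26). The unadjusted p-values in edgeR were 0.0876 and 0.0856. With Pdia4, 3 of the 15 genes were apart in this direction, beside 1.84% of all genes. The heat shock and danger signal list had 3 of 10 genes above 0. Its leading gene Calr, calreticulin, a signal of immunogenic cell death when it is exposed on the cell surface, stood at 947 to 1285 CPM under PBS and 846 to 1137 CPM under cisplatin (−0.20 ± 0.19). The value for Calr was −0.34 without cisplatin 4 and −0.10 without PBS 2.

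Of 16 immediate-early genes 4 were above 0 (median −0.14, −0.24 without PBS 2 and −0.08 without PBS 3), with Myc at 89.8 to 164 against 73.4 to 102 CPM. Ier2 was lower without overlap, at 41.7, 65.9, 44.7 and 46.6 against 31.2, 39.5, 32.0 and 40.7 CPM (−0.47 ± 0.28). The BCL2 family had 7 of 14 genes above 0. Hypoxia targets had 12 of 14 above 0 with a median of 0.16, and none was apart. Without cisplatin 2 there were 9 of 14 with a median of 0.09, and without cisplatin 3 the median was 0.09.

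T cell genes overlapped between the groups. Cd8a stood at 3.96, 5.30, 5.71 and 5.85 CPM under PBS and at 8.20, 2.36, 2.18 and 5.87 CPM under cisplatin, so that the cisplatin tumors spread on both sides of the PBS range. The difference was −0.16 with an interval of −1.77 to 1.45, and its sign turned without cisplatin 2 or cisplatin 3. Foxp3, the regulator of regulatory T cells, stood at 2.26, 1.45, 4.96 and 5.09 against 8.67, 3.19, 5.05 and 3.81 CPM, with overlapping groups (0.59 ± 0.64). All 5 genes of the CD4 and regulatory T cell list were above 0, with a median of 0.59 that was 0.27 without cisplatin 1. Ptprc (CD45), carried by all leukocytes, stood at 91.8, 105, 74.5 and 95.6 against 155, 77.2, 79.9 and 144 CPM. Prf1, perforin, was apart, at 11.1, 11.4, 8.01 and 11.1 against 17.7, 13.9, 16.2 and 25.3 CPM (0.81 ± 0.46, unadjusted p = 0.0944, edgeR). Of the 8 genes of NK and cytotoxic cells 6 were above 0, and of 6 general T cell genes 4, with medians of 0.20 and 0.11. Without cisplatin 4 the first of these was −0.14 and the second −0.12. The second was also −0.14 without cisplatin 1, and the first was 0.58 without PBS 2.

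The MHC class II genes followed the same tumors. All 7 were above 0 with a median of 0.54. Of the 7, 0 had groups apart, beside 1.57% of all genes apart higher and 1.84% lower. At an unadjusted p under 0.05 (edgeR) 1 of 7 was higher, beside 1.30% of all genes. H2-Aa stood at 195, 523, 285 and 197 CPM under PBS and at 751, 198, 239 and 596 CPM under cisplatin, high in PBS 2, cisplatin 1 and cisplatin 4. Ciita, the class II transactivator, had an unadjusted p of 0.0469 (6.30, 13.5, 12.5 and 9.13 against 47.9, 9.96, 13.4 and 19.3 CPM), and its fold change of 1.13 was 0.45 without cisplatin 1. Cisplatin 2 and cisplatin 3 lay within the PBS range in H2-Aa. The list median ran from 0.15 without cisplatin 1 to 0.98 without PBS 2. By contrast, type I interferon response genes had 9 of 20 above 0 and a median of −0.03, and MHC class I genes 4 of 10 and −0.06. Inflammatory cytokines and chemokines had 8 of 16 and −0.02. Leaving out 1 tumor turned the sign of these 3 medians, to 0.09 without PBS 4 for the interferon genes, 0.03 without cisplatin 3 for class I and 0.16 without PBS 2 for the cytokines.

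In the shared fit, monocyte and neutrophil markers were the cell type lists with genes at an unadjusted p under 0.05 (edgeR). These were 2 of 4 and 1 of 4 genes, all higher, beside 1.30% of all genes. In a fit of the 8 tumors alone, other lists held such genes too. The mast cell and eosinophil list had 3 of 5 and the adipocyte list 3 of 5. The T cell, CD4 and regulatory T cell, and NK and cytotoxic cell lists had 1 each. Chil3, a chitinase-like protein secreted by myeloid cells, stood at 0.444, 0.776, 0.108 and 0.165 CPM under PBS and at 4.04, 1.06, 2.91 and 4.48 CPM under cisplatin. All cisplatin tumors were above all PBS tumors (3.05 ± 0.93, unadjusted p = 0.00429, adjusted p = 0.99997, edgeR), at counts close to the limit in PBS 3 and PBS 4. Ccr2, the chemokine receptor of inflammatory monocytes, stood at 101, 182, 86.2 and 103 against 242, 151, 130.2 and 324 CPM. PBS 2 lay within the cisplatin range (0.84 ± 0.37, unadjusted p = 0.0365), and without cisplatin 4 the value was 0.53. Ly6c2 and Plac8, of the same list, differed by 0.26 and 0.18 with intervals across 0. The median of the 4 monocyte genes was 0.55, and 0.28 with 3 of 4 above 0 without cisplatin 4.

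S100a8, a calcium-binding protein of neutrophils, stood at 0.444, 2.94, 0.611 and 0.860 CPM against 2.44, 3.00, 2.04 and 6.02 CPM. PBS 2 again lay among the cisplatin tumors (1.47 ± 0.64, unadjusted p = 0.0348, edgeR). The fold change of S100a8 was 2.39 without PBS 2 and 0.98 without cisplatin 4. Without PBS 1, PBS 3, PBS 4 or cisplatin 4, 0 neutrophil genes had an unadjusted p under 0.05. The 4 measured neutrophil genes were all above 0 with a median of 1.06, which was 1.66 without PBS 2. All 5 measured mast cell and eosinophil genes were also above 0, with a median of 0.80 that was 0.52 without cisplatin 4. In this list the mast cell protease genes Cpa3, at 7.71, 7.83, 4.35 and 7.18 against 17.6, 8.67, 10.4 and 18.9 CPM, and Mcpt4 had groups apart, beside 1.57% of all genes apart in that direction. Macrophage genes had 2 of 6 above 0 and dendritic cell genes 6 of 6, with medians of −0.25 and 0.18. Without PBS 2 the macrophage median was 0.05 with 4 of 6 genes above 0, and without cisplatin 4 the dendritic cell median was 0.02 with 4 of 6. Ms4a1 (CD20), of B cells, was highest in cisplatin 4 at 4.16 CPM, against 0.190 to 0.908 CPM in the other cisplatin tumors, and its fold change of 1.75 was 0.22 without that tumor.

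Markers of tissue around the tumor also varied between tumors. The 5 adipocyte genes were all above 0 (median 0.72), with Cidec, a lipid droplet protein, at 3.05 to 6.71 under PBS and 5.89 to 14.0 CPM under cisplatin. Skeletal muscle genes were highest in cisplatin 1, where Myh4 stood at 55.7 CPM against 2.42 to 23.7 CPM in the other 7. Fibroblast and pericyte genes had 5 of 7 above 0, endothelial genes 2 of 6 and matrix genes 8 of 14. Keratinocyte genes had 0 of 3, with Krt14 at 0.0359 to 1.90 CPM under PBS and 0 to 1.17 CPM under cisplatin. Red blood cell and Schwann cell genes had 5 of 5 and 3 of 4. Genes of mesothelial and tumor cells had 2 of 6, with a median of −0.13 that was 0.03 without PBS 2. The part of these tissues in the other values was not tested.

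**Figure D4:**
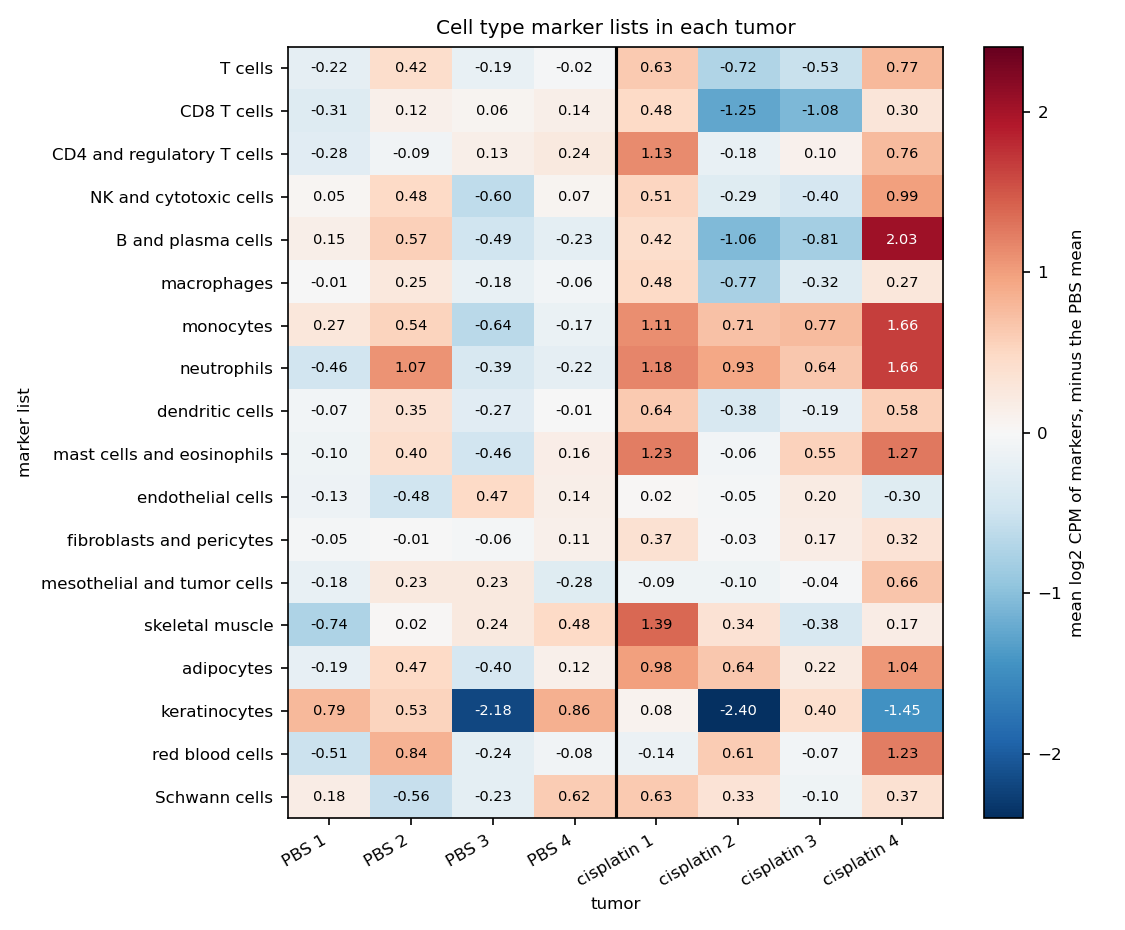
Mean log2 CPM of the measured genes of each of 18 cell type marker lists in the 8 tumors, minus the mean of the 4 PBS tumors, with the value in each cell. The mean of the 4 monocyte markers, among which Chil3 differs most (3.05), is above the highest PBS tumor in all 4 cisplatin tumors, while T cell, B cell and dendritic cell markers are higher in cisplatin 1 and 4 than in cisplatin 2 and 3.

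A fixed rule named the 10 genes in each direction with the smallest unadjusted p among those with a mean of at least 50 counts and groups apart. Their unadjusted p-values ran from 0.00144 to 0.0140 for the higher and from 0.000667 to 0.0189 for the lower genes, and the adjusted p was 0.99997 for all (edgeR). Not overlapping was part of the choice and adds no evidence. Besides Cdkn1a, Trp53inp1 and Chil3, the higher genes were Cyp4f18, Dpep2, Cnr2, Crebrf, Acer2, Inka2 and Gm20634. Cyp4f18, which inactivates leukotriene B4 in myeloid cells, stood at 0.969, 1.55, 0.754 and 1.29 CPM under PBS and 3.44, 2.40, 2.31 and 3.72 CPM under cisplatin (1.37 ± 0.36). Dpep2, a dipeptidase that converts leukotriene D4, stood at 15.4, 20.7, 13.6 and 15.1 against 27.9, 23.8, 21.4 and 29.7 CPM (0.67 ± 0.19).

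Cnr2, the cannabinoid receptor of immune cells, was highest in cisplatin 1 and differed by 1.19 ± 0.36. Crebrf, a negative regulator of the unfolded protein response factor CREB3, stood at 19.7, 21.5, 17.8 and 21.5 against 31.3, 27.9, 28.2 and 31.8 CPM (0.57 ± 0.15). Acer2, a Golgi ceramidase, differed by 1.24 ± 0.39, and Inka2, an inhibitor of the kinase PAK4, by 0.64 ± 0.23. Gm20634, a non-coding transcript on chromosome 3 (1.39 ± 0.44), stood at 0.404, 0.776, 1.26 and 1.65 against 2.76, 3.19, 2.78 and 2.09 CPM. It overlaps the histone genes Hist2h2aa1 and Hist2h3c1 on the same strand, and Hist2h3c1 was at 1.45, 0.641, 0.539 and 0.397 CPM under PBS and at 0 in every cisplatin tumor, so reads could have been assigned to either partner.

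Of the lower genes, Fxyd2, a regulatory subunit of the sodium pump, had the largest difference. It stood at 3.92, 8.47, 5.32 and 3.77 CPM under PBS and at 1.88, 1.18, 1.67 and 1.71 CPM under cisplatin (−1.73 ± 0.42, unadjusted p = 0.000667, edgeR). Jdp2, a repressor of AP-1, stood at 103, 85.9, 104 and 106 against 53.9, 75.8, 67.3 and 64.9 CPM (−0.61 ± 0.17). Hes1, the transcriptional repressor downstream of Notch, stood at 11.9 to 12.8 CPM in the PBS tumors and at 6.70, 9.39, 8.77 and 5.16 CPM in the cisplatin tumors (−0.72 ± 0.22). In Hes1 the PBS tumors lay close together (12.3 ± 0.456 CPM, SD) and the cisplatin tumors spread more widely (7.51 ± 1.94 CPM).

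The rule named 7 further lower genes. Acy1, an aminoacylase, stood at 20.6 to 22.7 against 12.4 to 17.4 CPM (−0.55 ± 0.16). Matk, a kinase that inhibits Src family members (−0.79 ± 0.30), and Chst7, a sulfotransferase (−1.05 ± 0.40), also had groups apart. Yju2 of the spliceosome (−0.40), Farsb, a subunit of phenylalanyl-tRNA synthetase (−0.43), Sgf29 of the SAGA complex (−0.37) and Tecr of very long chain fatty acid synthesis (−0.36) completed the set.

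The same drug was given together with checkpoint antibodies to 5 other mice, and cisplatin+ICB against ICB is a comparison with no tumor in common with cisplatin against PBS. It too had 0 DEGs in edgeR (smallest adjusted p = 0.291), with 1558 genes higher (8.74%) and 1281 lower (7.19%) at an unadjusted p under 0.05, and 52 DEGs in DESeq2. The count of higher genes was 548 without cisplatin+ICB 1, 878 without ICB 2, 943 without ICB 3, 919 without ICB 5, and 2460 without cisplatin+ICB 5. The count of lower genes was 734 without ICB 3 and 841 without cisplatin+ICB 3. Cisplatin+ICB 1 stood apart as a library, with 16639.9 CPM of Lars2 against 1158 to 3458 CPM in the other tumors given ICB, and with the lowest level of long against short transcripts of the 18 tumors (−2.16). Its TMM factor was 0.68, beside 0.89 to 1.15 in the other 17. The part of this in the values below was not tested beyond leaving the tumor out. Cdkn1a stood at 129, 163, 119, 162 and 162 CPM in the ICB tumors and at 261, 236, 187, 205 and 221 CPM in the cisplatin+ICB tumors. Every combination tumor was above every ICB tumor, with a fold change of 0.60 (unadjusted p = 0.000567, edgeR), next to 0.58 without antibodies. The difference between these effects was 0.01 (unadjusted p = 0.951 for the interaction in edgeR).

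Of the 26 p53 targets 20 were again above 0 in the presence of ICB, with a median of 0.35 beside 0.04 over all genes. Of these 11 were higher and 3 lower at an unadjusted p under 0.05, beside 8.74% and 7.19% of all genes. Without cisplatin+ICB 1 the counts were 12 and 2, beside 548 and 1086 among all genes tested in that fit, for which the filter was run again. Leaving out single tumors gave between 9 and 12 higher. Mdm2 (0.63), Phlda3, a repressor of AKT signalling (1.35), and the death-domain receptor gene Eda2r (1.26) were among the 11, with an adjusted p of 0.291 each in edgeR. In cisplatin against PBS their values were 0.16, 0.19 and 0.34. Phlda3 stood at 290 CPM in cisplatin+ICB 1 and 58.7 to 82.7 CPM in the other 4 tumors of that group. Trp53inp1 was at −0.06 with ICB and 0.79 without (interaction unadjusted p = 0.0109, edgeR).

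No interaction passed the test in edgeR. At an unadjusted p under 0.05 there were 1273 genes (7.14%) and the smallest adjusted p was 0.564, so by this test none of these differences is shown at the threshold. The gene with the smallest p was Crebrf, at 0.57 without and −0.57 with ICB (adjusted p = 0.564 in edgeR). Limma voom called it at an adjusted p of 0.0298. In the MHC class II list 7 of 7 interaction p-values were under 0.05, but 3 without PBS 1, 3 without cisplatin 1, 3 without cisplatin 4 and 4 without PBS 4. There the median was 0.54 without and −1.36 with ICB. Lower at an unadjusted p under 0.05 with ICB were 7 of 7 class II genes, beside 7.19% of all genes. Without cisplatin+ICB 1 this count was 4, beside 1086 among all genes tested in that fit. The replication and mitosis lists had 19 of 22 and 16 of 18 genes above 0 with ICB, beside 52.9% of all genes. Interaction p-values were under 0.05 for 7 of 22 and 2 of 18 of them, and for 0 and 0 without cisplatin 1 or without PBS 2. They were under 0.05 for 12 and 11 without ICB 4. Higher at an unadjusted p under 0.05 with ICB were 5 of 22 and 3 of 18, beside 8.74% of all genes. Without cisplatin+ICB 1 these counts were 0 and 0, beside 548 among all genes tested in that fit. A difference from the values without ICB is not shown for these lists.

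**Figure D5:**
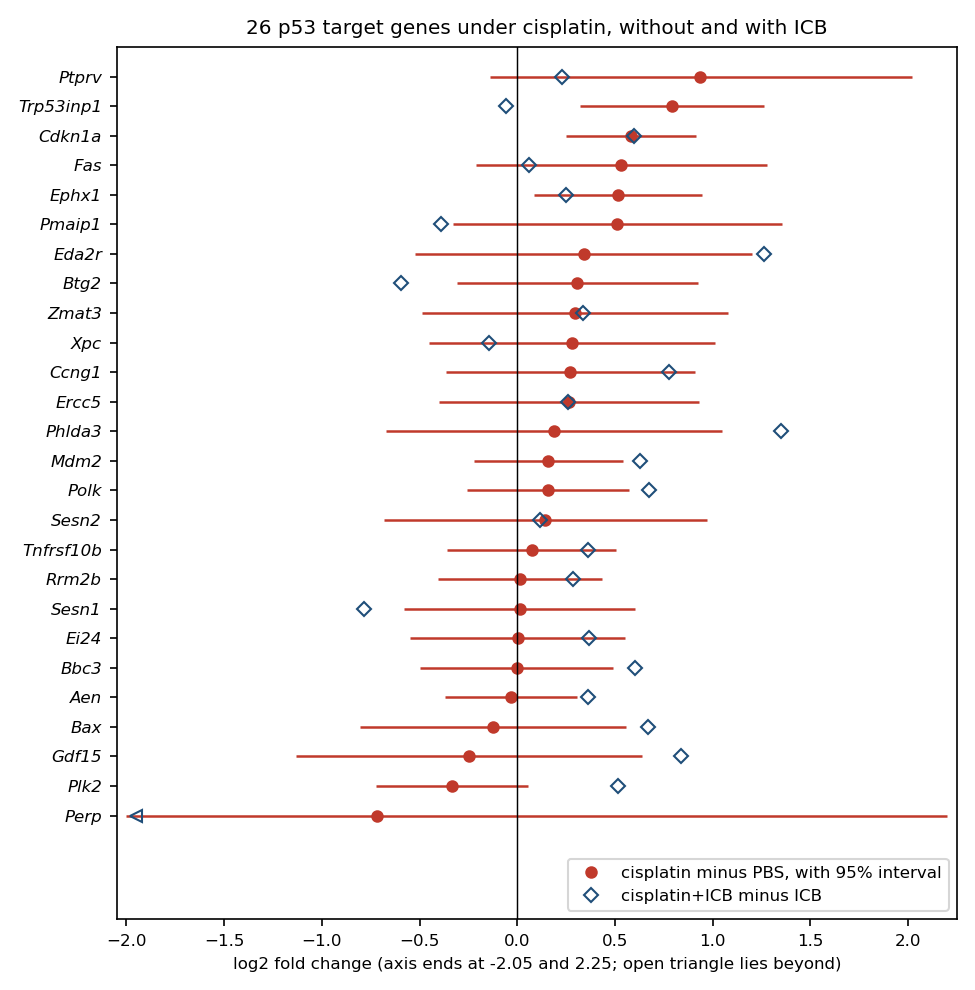
Log2 fold change of the 26 p53 targets for cisplatin minus PBS (red points, with 95% intervals as lines) and for cisplatin+ICB minus ICB (open blue diamonds). Cdkn1a lies at 0.58 and 0.60, while Phlda3, Eda2r and Mdm2 are further right with ICB than without. The triangle for Perp marks a value beyond the axis (−3.60).

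5-FU, measured against the same 4 PBS tumors at the same time, gave 825 DEGs among 18521 genes by the same test, 526 higher (2.84%) and 299 lower (1.61%). This test thus made calls with 5 tumors against 4. Because both drugs share the PBS tumors, their values are only set side by side. Cdkn1a was at −0.07 under 5-FU and 0.58 under cisplatin, and the p53 target medians were −0.16 and 0.17. The immediate-early gene medians were 1.62 and −0.14, the MHC class II medians 2.31 and 0.54, and the replication medians −0.55 and −0.28. Hes1 was at −1.01 (adjusted p = 0.0198) under 5-FU and −0.72 under cisplatin, and Jdp2 at −1.18 (adjusted p = 0.0157) and −0.61. For Matk the values were −2.07 (adjusted p = 0.00185, edgeR) and −0.79.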

How the data were processed

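Whole tumors were preserved in RNAlater and their total RNA was sequenced as single-end reads. The authors deposited estimated counts per gene, made with kallisto (0.46.0) against GRCm38 and summed per gene with tximport after bcl2fastq (2.20.0.422). Tools and versions are those of the submitters' processing notes. All value columns mapped to a labelled tumor (0 did not). Counts were rounded to whole numbers, since 23.8% of entries were not whole, and 26 gene names turned into dates were kept out of the named genes.

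Genes were filtered with filterByExpr and tested with edgeR (4.0.16, R 4.3.3) by a quasi-likelihood test after TMM scaling, in 1 model of the PBS, ICB, cisplatin and cisplatin+ICB tumors, with Benjamini-Hochberg adjustment over all genes tested. DEGs are genes whose adjusted p was under 0.05 and whose log2 fold change lay beyond 0.5 in either direction. The 5-FU comparison used a model of all 6 groups. CPM are counts scaled to a common library size, and log2 CPM used a prior count of 2. Groups were called apart where their values did not overlap. The biological coefficient of variation was 42.0%.

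Genes were named by rule: the 10 apart genes per direction with the smallest p and a mean of at least 50 counts, the gene with the smallest p in each list (and the next if under 0.05), DEGs of edgeR or DESeq2, and 10 preset genes. Further genes in the text illustrate a list. The members and lists were chosen with earlier results of these data known. Alternatives used DESeq2 (1.42.0), limma voom (3.58.1), other size factors, filters and sample sets, and 1 was added after the data were seen. Procedures were tested on simulated data. Replicate numbers are shared between groups, but deviations of the cisplatin and PBS tumors with the same number correlated at −0.30, 0.067, 0.35 and −0.45, so the numbers were not taken as pairs. Gene coordinates are from GENCODE M21 (GRCm38). Among the cisplatin and PBS tumors, 28 pairs of libraries were compared, and 0 pairs were identical. Results for some genes are not reported here.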

Additional observations from a re-analysis of the deposited data

Results flagged for a closer look

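In 142 groups of 4 tumors, the gap between an extreme tumor and its nearest neighbour was compared with the range of the group by Dixon's criterion, and 14 values stood apart. Chance flags about 1 in 20 groups. Among genes of DNA damage, Trp53inp1 stood at 33.0 CPM in PBS 4 and Mdm2 at 92.9 CPM in PBS 2, each above the other 3 PBS tumors. PBS 2 also stood apart with 3.47 CPM of Tnf, 132 CPM of the macrophage receptor gene Mrc1, 2.94 CPM of S100a8 and 6.17 CPM of Abcc3, which was its group's lowest. PBS 3 was high in Cd5 (3.23 CPM) and low in Prf1 (8.01 CPM). In the cisplatin group, Calr was at 1137 CPM in cisplatin 4. Gm20547 and Gm45837 were found in cisplatin 4 only of that group, at 2.30 and 3.42 CPM. For structural RNAs, PBS 1 held 2073 CPM of mt-Rnr1 and 58.1 CPM of Rn7s1, and cisplatin 2 held 5.55 CPM of Rn7s1.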

How the results depend on the processing

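With edgeR no setting gave a DEG. DESeq2 called 3 genes and limma voom 1 for cisplatin against PBS, 52 and 25 for cisplatin+ICB against ICB, and voom 3 for the interaction. The 317 genes at an unadjusted p under 0.05 became 633 with DESeq2, 833 with voom, 865 without a filter, 138 with at least 10 counts in every tumor and 588 in a fit of the 8 tumors alone. Leaving out 1 tumor gave 171 to 705. The 606 genes whose groups were apart became 376 with at least 10 counts in every tumor, and 777 to 1446 with 1 tumor fewer. With the replicate block, the count of 317 was 236, and 315 for the 8 tumors alone, with 0 DEGs in both, and the replicate numbers did not pair the tumors.

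Of 1866 values for 67 named genes under 28 settings, 1846 kept their direction and 0 passed the threshold (the 3 genes called by DESeq2 are not among the 67). Most of these genes were chosen for groups apart or for the smallest p of a list. Leaving out 1 tumor could thus hardly turn their direction, and the share kept adds no evidence. Some settings left out a tumor of neither group. The other 20 values changed direction, and the cause was not tested. Mki67 was at 0.036 with at least 10 counts in every tumor, 0.0070 for the 8 tumors alone, 0.28 with the block and 0.27 with the block for the 8 tumors alone, 0.48 without PBS 3, 0.14 without PBS 4, 0.0065 without cisplatin 2, 0.25 without cisplatin 4 and 0.011 without cisplatin+ICB 1. Slc31a1 was at 0.015 with voom, 0.0013 with at least 10 counts, 0.000802 with the block for the 8 tumors alone, 0.023 without PBS 1, 0.00798 without cisplatin 1 and 0.052 without PBS 1 and cisplatin+ICB 1, a setting chosen after seeing the data. Mrc1 was at −0.064 with voom, Nlrc5 at −0.024 without cisplatin 1, and Cd8b1 at 0.025 without cisplatin 2. Cd8a was at 0.054 without cisplatin 2 and 0.072 without cisplatin 3. With 1 tumor left out, values ran from −0.35 to 0.48 for Mki67, −0.11 to 0.023 for Slc31a1, −0.024 to 0.57 for Nlrc5, −0.53 to 0.025 for Cd8b1 and −0.58 to 0.072 for Cd8a. Of 468 list medians 459 moved by less than the spread between tumors. The comparison rested on 4 tumors a group and a depth of at least 25502173 counts, and the median standard error was 0.38. How far group size or depth limited the precision was not tested. For Chil3 and other genes under 1 CPM in PBS tumors the counts were near the 3-count limit in some tumors.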
